A study of Mus musculus with 14 samples.

Results

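Nnat encodes neuronatin, a small membrane protein of the endoplasmic reticulum of neurons, and is expressed from the paternal allele. In striatal RNA of 6-week-old R6/2 mice its signal was lower than in wild-type mice, and the values of 8 further imprinted genes were set beside it: Peg3, Ndn, Snrpn, Meg3, Igf2, Grb10, Dlk1 and H19. Every probe set that the array's annotation assigns to a member was taken, which gave 29 of the 22626 probe sets tested. Of these, 24 carried 1 symbol. The other 5 carried several, 4 being annotated to Snurf and Snrpn together and 1 to Mir675 and H19 together, and these 5 are named by both symbols because the annotation does not separate them. H19 had no probe set of its own, so 8 of the 9 members were measured singly. Nnat was chosen for its fall between the genotypes, and its values in that comparison are therefore given as a description.

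The R6/2 line models Huntington disease through a transgene that holds exon 1 of human HTT with an expanded CAG repeat, here on a mixed CBA and C57BL/6 background, and the wild-type mice had the same background. All mice had received saline 30 to 60 minutes before they were killed, since they were the controls of a pair of drug studies. Total RNA was hybridised to 14 Affymetrix arrays, 7 from R6/2 and 7 from wild-type mice. The sample titles begin with M.C or with Mith, and this start is used as the cohort: M.C held 4 arrays of each genotype (replicates 1 to 4) and Mith held 3 of each (replicates 5 to 7). Whether every array came from a different animal is not stated in the labels, so all p-values measure the spread between arrays. Values are log2 probe set signals, with the arrays centred on a common median, and a change is R6/2 minus wild-type in log2 units with the cohort as a term, ± its standard error. Probe sets were called in limma at an adjusted p (Benjamini-Hochberg, across the whole array) under 0.05.

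Imprinted genes are expressed mainly from the allele of either the father or the mother, and differentially methylated control regions mark which allele is silent. Many of them lie in clusters and many act on growth, with paternally expressed genes such as Igf2 and Dlk1 often promoting it and maternally expressed genes such as H19 and Grb10 often restraining it. Several, including Nnat, Peg3, Ndn and Snrpn, are strongly expressed in neurons, and Ndn and Snrpn belong to the cluster whose human counterpart is lost in Prader-Willi syndrome. An array probe set reads the RNA of both alleles together, so which allele a signal came from was not measured.

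The members come from several clusters. In the RefSeq table Nnat lies within the gene Blcap on chromosome 2, Dlk1 and Meg3 neighbour each other on chromosome 12, Grb10 is on chromosome 11, and Peg3, Snrpn, Ndn, H19 and Igf2 are on chromosome 7. The promoter windows of Nnat and Dlk1 are shown because Nnat was the member that was called and Dlk1 was the member with the widest gap between wild-type replicate 2 and the other arrays. Each window runs from 250 bases before to 50 bases after a transcription start, 5′ to 3′, from RefSeq on GRCm38.p6. CG dinucleotides, the sites of DNA methylation, are in capitals. For Nnat this start is the start of the gene. The Dlk1 window lies inside the gene, which begins at 109452485 in the RefSeq table. Nnat is at chr2:157559828-157560127 on the plus strand and Dlk1 at chr12:109452573-109452872 on the plus strand.
Nnat: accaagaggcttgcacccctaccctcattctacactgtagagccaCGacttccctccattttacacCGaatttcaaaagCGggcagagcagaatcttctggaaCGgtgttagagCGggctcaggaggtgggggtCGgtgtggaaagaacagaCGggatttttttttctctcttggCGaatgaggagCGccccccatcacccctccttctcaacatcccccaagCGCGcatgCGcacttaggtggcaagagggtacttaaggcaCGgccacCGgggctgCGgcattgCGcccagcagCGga
Dlk1: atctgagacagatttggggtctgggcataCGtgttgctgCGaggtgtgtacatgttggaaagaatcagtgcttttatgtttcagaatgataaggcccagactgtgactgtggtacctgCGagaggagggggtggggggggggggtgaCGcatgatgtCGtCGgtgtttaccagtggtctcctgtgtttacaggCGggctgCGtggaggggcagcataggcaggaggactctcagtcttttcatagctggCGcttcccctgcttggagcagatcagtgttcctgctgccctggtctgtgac
The Nnat window held 17 CG dinucleotides and the Dlk1 window 9, and 31.4% and 45.8% of all 32851 windows held at least as many. Windows were found for 8 of the 9 members. On either strand, TGCGCA, the core of the NRF1 motif, was present in windows of Nnat, Ndn, Igf2 and Snrpn and in 7.76% of all windows. The GC box GGGCGG was present in windows of Ndn, Igf2 and Grb10 and in 35.7% of all windows. The YY1 motif GCCATNTT was in no window of a member and in 6.05% of all windows. None of the 3 motifs contains another, and a match describes the sequence only.

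Some arrays stood apart. On wild-type replicate 2 all 11 probe sets of 7 pituitary hormone genes (Gh, Prl, Pomc, Cga, Lhb, Fshb and Tshb, a list chosen after the values were seen) were higher than on any other array, and 8 of the 11 were second highest on wild-type replicate 3. The list averaged -0.39 to -0.11 on the R6/2 arrays, against 3.31 on wild-type replicate 2, 0.45 on wild-type replicate 3 and -0.53 to -0.16 on the other wild-type arrays (log2, relative to the mean of all arrays). The growth hormone probe set (Gh) of highest mean read 7.17 to 7.74 on the R6/2 arrays, against 13.49 on wild-type replicate 2, 9.70 on wild-type replicate 3 and 6.79 to 7.81 on the other wild-type arrays. R6/2 replicate 4 was the array least like the others, its Spearman correlations within M.C averaging 0.981 against 0.986 to 0.992 for the other arrays. The difference between 3′ and 5′ Actb control probe sets, a measure of RNA integrity, was 0.28 to 0.85 on R6/2 arrays and 0.20 to 0.61 on wild-type arrays. The tissue label was checked with Ppp1r1b and Drd2, genes of striatal projection neurons, which averaged 9.90 and 8.95 in R6/2 and 10.70 and 9.52 in wild-type arrays, and the choroid plexus gene Ttr averaged 11.40 ± 1.69 in R6/2 and 11.60 ± 1.81 in wild-type arrays (SD, n = 7 each). Slc17a7 had no probe set with 1 symbol.

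In the M.C cohort the Nnat probe set (1423506_a_at) read 10.35, 10.41, 9.93 and 9.56 on the R6/2 arrays, against 10.79, 11.90, 10.80 and 10.88 on the wild-type arrays. Every R6/2 array of that cohort was below every wild-type array, and the highest value of all 14 was that of wild-type replicate 2. In the Mith cohort Nnat read 10.66, 10.25 and 10.41 on the R6/2 arrays, against 11.01, 10.62 and 11.21 on the wild-type arrays. There the genotypes overlapped, since R6/2 replicate 5 lay above wild-type replicate 6. Over both cohorts the mean was 10.22 ± 0.37 in R6/2 and 11.03 ± 0.42 in wild-type arrays (SD, n = 7 each).

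The change of Nnat was -0.80 ± 0.18 (95% confidence interval -1.18 to -0.42), so that R6/2 signal stood at 57.3% of wild-type signal. It was -1.03 ± 0.23 in M.C and -0.50 ± 0.26 in Mith. Nnat was the 1 member called in the comparison of genotypes over both cohorts, in which 2.55% of all probe sets were called, 2.19% as lower in R6/2. In whole tissue, fewer cells of a type and less RNA per cell cannot be told apart.

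The size of the Nnat change depended on the arrays that stood apart. Without wild-type replicate 2 it was -0.64 ± 0.13, or 64.1% of wild-type, and still called, with 1.75% of all probe sets called. Without both wild-type arrays that carried pituitary hormones it was -0.63 ± 0.14 and no longer called, with 0.544% called. Without wild-type replicate 2 and R6/2 replicate 4 it was -0.55 ± 0.10 and called, with 2.76% called. With the Actb difference as a covariate it was -0.84 ± 0.24 and not called, with 0.248% of all probe sets called. The call was also lost without R6/2 replicate 3 and without wild-type replicate 7, where the change was -0.76 ± 0.19 and -0.78 ± 0.19. A list of 7 thalamic marker genes was lower in R6/2 for all 7, with a median change of -0.27. Of the 7, 0 were called in limma and 4 had an unadjusted p under 0.05, all lower, where 15.2% of all probe sets had one in either direction. In Mith this list averaged -0.08 to 0.31 on the R6/2 arrays and 0.37 to 0.997 on the wild-type arrays, without overlap, and in M.C it averaged -0.47 to -0.10 on the R6/2 arrays and -0.40 to -0.13 on the wild-type arrays, with overlap (log2, relative to the mean of all arrays). The part of pituitary RNA, of thalamic RNA and of RNA integrity in the changes of Nnat and the other members was not tested.

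**Figure D1:**
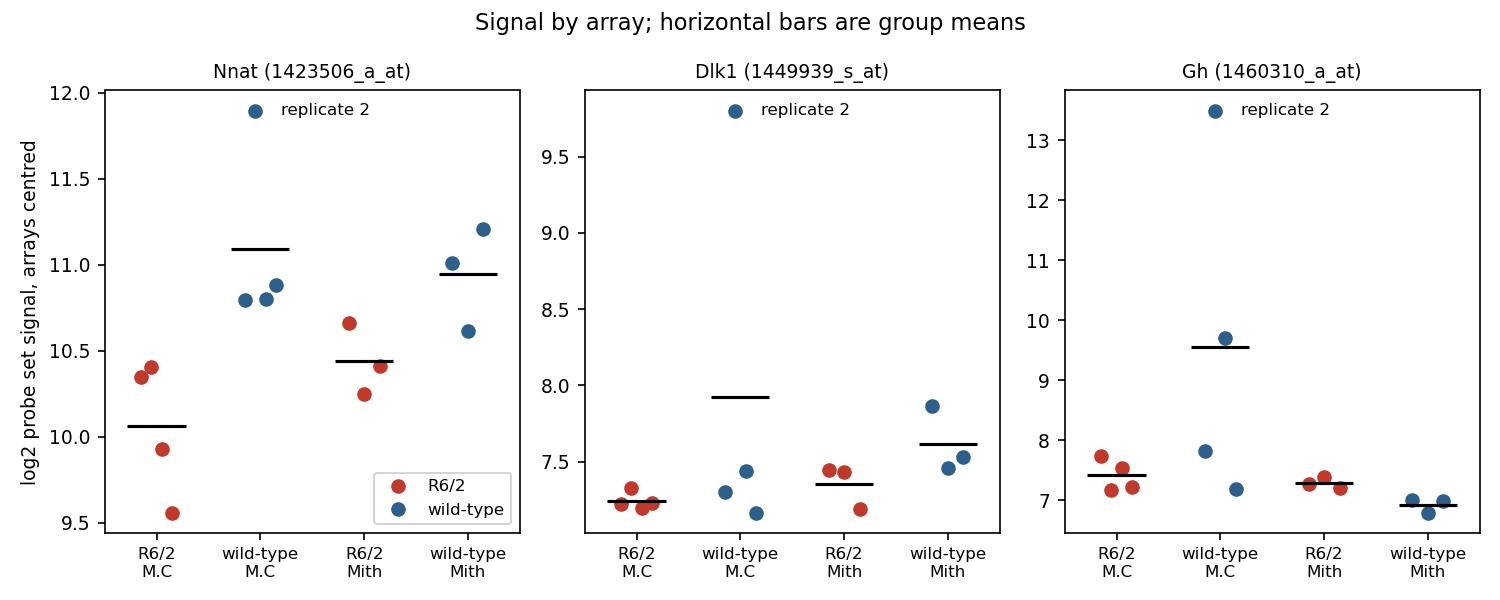
Log2 signal on each array (vertical axis) for Nnat, Dlk1 and Gh, with R6/2 and wild-type arrays side by side in each cohort (points are arrays, bars are group means). Nnat was lower on all R6/2 arrays of M.C, while wild-type replicate 2 was the highest array for all 3 genes, with 11.90, 9.80 and 13.49.

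Dlk1 encodes a membrane protein related to the Notch ligands and is paternally expressed. It read 7.22, 7.33, 7.19 and 7.23 on the R6/2 arrays of M.C, against 7.30, 9.80, 7.44 and 7.17 on the wild-type arrays. In Mith it read 7.44, 7.43 and 7.19 on the R6/2 arrays, against 7.86, 7.46 and 7.53 on the wild-type arrays. The genotypes overlapped in M.C, where wild-type replicate 2 alone was high, and did not overlap in Mith, where all R6/2 arrays were lower. By its distance above the next array on wild-type replicate 2, 1.94 log2 units, Dlk1 ranked 10 among all probe sets, and the 9 before it were all of pituitary hormone genes. The change of -0.50 ± 0.29 over all arrays became -0.15 ± 0.08 without wild-type replicate 2, and in M.C it was -0.68 ± 0.39 with that array and -0.06 without it.

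Meg3, a maternally expressed long noncoding RNA, lies in the same cluster as Dlk1. Its 5 probe sets gave changes of -0.43 ± 0.36 to -0.04 ± 0.09, all lower in R6/2 arrays, and none was called. Probe set 1439380_x_at, the one of -0.04, turned sign in 5 of 25 alternatives. Meg3 1436713_s_at, which had the lowest of these changes, read 6.67 to 9.04 on the R6/2 arrays and 6.78 to 8.90 on the wild-type arrays, so that the genotypes spanned nearly the same range. Meg3 1436057_at read 9.97, 9.94 and 9.61 on the R6/2 arrays of Mith, against 10.08, 10.14 and 10.12 on the wild-type arrays, without overlap. In M.C the same probe set overlapped, and its change was -0.01 ± 0.09 in M.C and -0.27 ± 0.11 in Mith.

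Probe sets of Ndn and Snrpn, which share a cluster, were mostly higher in R6/2, as were 12410 of all 22626 probe sets. Ndn encodes necdin, a protein of the MAGE family found in postmitotic neurons, and its 8 probe sets gave changes from -0.04 ± 0.10 to 0.23 ± 0.08, with 6 higher and 2 lower. Of the 2 lower ones, 1435382_at, at -0.01, turned positive with the deposited scale and with quantile normalization. With the Actb covariate 3 of the 6 higher Ndn probe sets had a negative change, the lowest of them -0.07. The largest Ndn change was that of 1437853_x_at, which read 10.90, 11.22, 10.81 and 10.64 on the R6/2 arrays of M.C against 10.56, 10.53, 10.84 and 10.69 on the wild-type arrays. In Mith it read 11.23, 11.19 and 11.37 on the R6/2 arrays against 11.07, 10.999 and 11.05 on the wild-type arrays. The genotypes of this probe set overlapped in M.C and not in Mith. It was not called over all arrays, was called after quantile normalization (0.29 ± 0.07) and without R6/2 replicate 4 (0.27 ± 0.07), and was 0.07 with the Actb covariate.

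Snrpn encodes SmN, a neuronal protein of the spliceosome, and shares its transcript with Snurf. Of the 4 probe sets annotated to Snurf and Snrpn together, 3 were higher in R6/2, at 0.17 ± 0.08, 0.19 ± 0.08 and 0.14 ± 0.06, and 1421063_s_at was lower, at -0.16 ± 0.10, or 0.06 with the Actb covariate. Probe set 1415896_x_at read 12.87, 13.003, 12.96 and 12.90 on the R6/2 arrays of M.C, against 12.74, 12.55, 12.76 and 12.68 on the wild-type arrays, without overlap. In Mith it read 12.49, 12.83 and 12.81 on the R6/2 arrays against 12.25, 12.73 and 12.80 on the wild-type arrays, with overlap. The single-symbol Snrpn probe set 1432096_at gave 0.12 ± 0.05, and the probe sets of this pair of genes thus went in both directions. None was called.

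Peg3, a paternally expressed zinc finger transcription factor, gave lower values in R6/2 with all 3 probe sets, at -0.07 ± 0.09, -0.15 ± 0.10 and -0.13 ± 0.07, none called. Its probe set of highest mean, 1433924_at, read 10.72, 11.07, 10.71 and 10.49 on the R6/2 arrays of M.C against 10.66, 10.93, 11.001 and 10.85 on the wild-type arrays. In Mith it read 11.48, 11.25 and 11.29 on the R6/2 arrays against 11.24, 11.24 and 11.57 on the wild-type arrays. The genotypes overlapped in both cohorts for all 3 Peg3 probe sets.

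Among the growth regulators, Igf2, a paternally expressed insulin-like growth factor, had 2 probe sets that went opposite ways, at -0.11 ± 0.08 and 0.12 ± 0.07. Grb10, an adaptor that restrains insulin and insulin-like growth factor receptors and is expressed from the paternal allele in mouse neurons, had 3 probe sets at 0.08 ± 0.08, 0.04 ± 0.08 and -0.23 ± 0.08. The last, 1425457_a_at, read 6.11, 6.00, 5.91 and 6.34 on the R6/2 arrays of M.C, against 6.37, 6.22, 6.64 and 6.28 on the wild-type arrays. In Mith it read 6.51, 6.52 and 6.36 on the R6/2 arrays against 6.60, 6.51 and 6.72 on the wild-type arrays. It overlapped in both cohorts. Among the alternatives tried it was called only when limma weighted the arrays by quality, at -0.30 ± 0.08. The probe set annotated to Mir675 and H19 together gave 0.15 ± 0.07, with 5.99, 5.93, 6.02 and 6.06 on the R6/2 arrays of M.C against 5.76, 5.79, 5.72 and 5.75 on the wild-type arrays, without overlap. In Mith this probe set overlapped, and its change there was 0.02 ± 0.11. It was dim, with a mean of 5.83 where the deposited array medians were 7.07 to 7.17. Grb10 1425457_a_at and 1430164_a_at, with means of 6.36 and 6.43, were also below those medians. So were Ndn 1438939_x_at, 1438978_x_at and 1456575_at, with means of 6.52, 6.37 and 5.83.

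Over the 29 probe sets, 15 were lower and 14 higher in R6/2, with a median change of -0.01 against 0.01 for all probe sets. No member separated the genotypes over all 14 arrays, where 0.486% of all probe sets did. In M.C 8 of the 29 did not overlap, where 11.2% of all probe sets did not, and Nnat was the 1 member called, where 3.21% of all probe sets were. This call came from the fit of all 4 groups, and when M.C was fitted alone the change of -1.03 ± 0.25 was not called, with 558 probe sets called. It was again the 1 member called in M.C without wild-type replicate 2, at -0.76 ± 0.18, where 2.05% of all probe sets were. In Mith 5 of the 29 did not overlap, where 12.9% of all probe sets did not, and no member was called, where 0.0221% of all probe sets were. At an unadjusted p under 0.05 in limma there were 2 of the 29 in Mith, or 6.9%, against 9.8% of all probe sets. Of the 28 probe sets other than Nnat, 19 kept their sign in all alternatives tried.

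**Figure D2:**
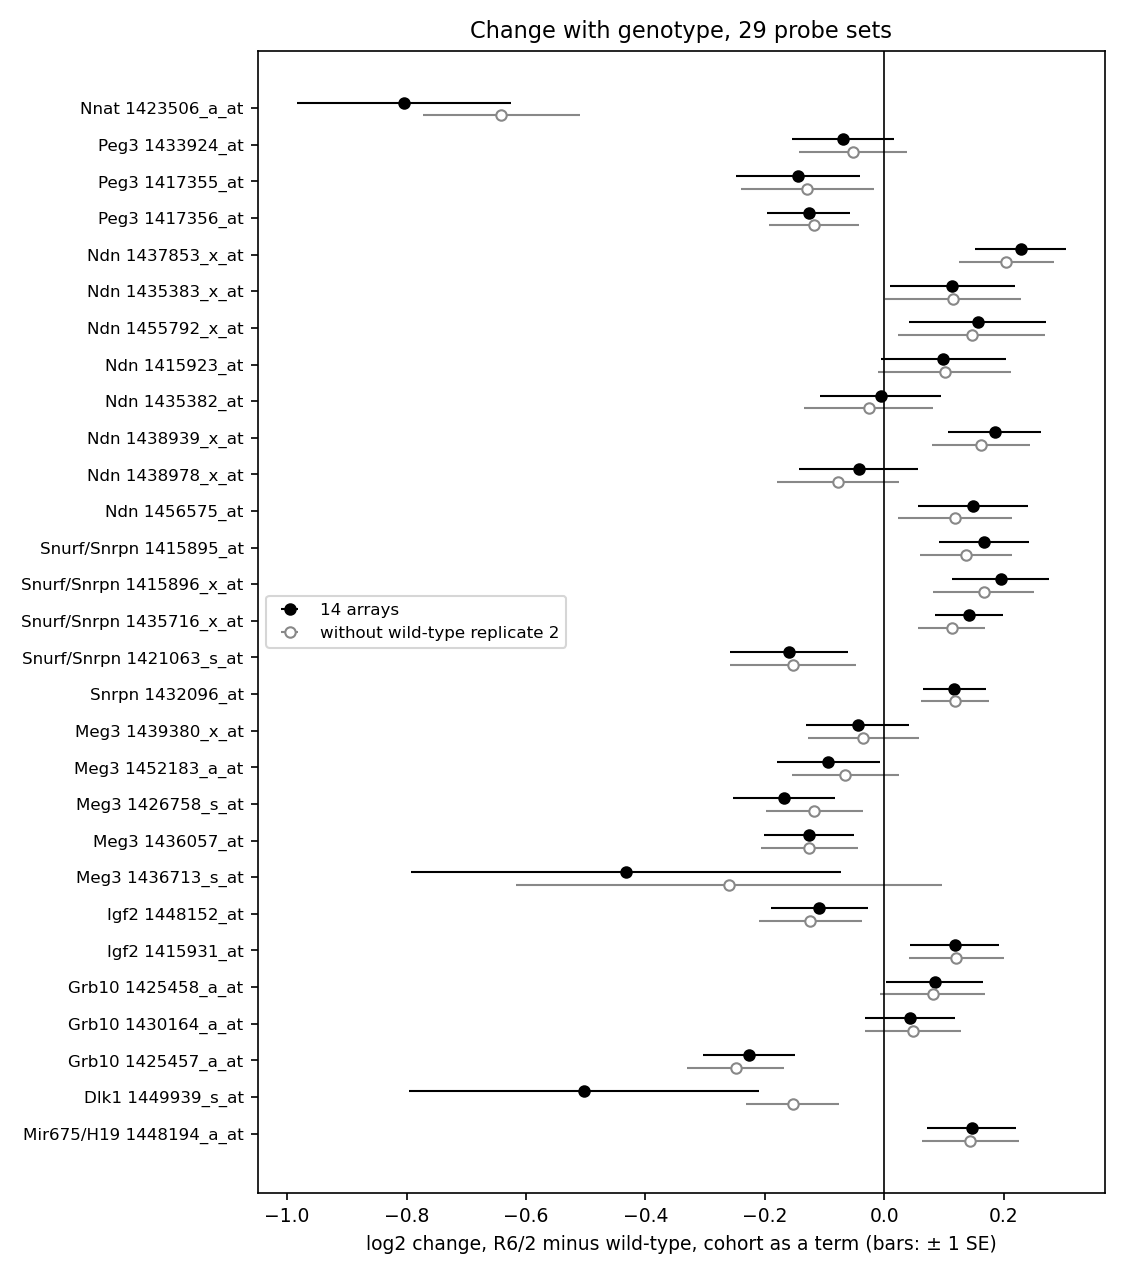
Change with genotype in log2 units (horizontal axis, R6/2 minus wild-type, bars ± 1 SE) for the 29 probe sets, over 14 arrays and without wild-type replicate 2. Nnat lay at -0.80 and -0.64, Dlk1 at -0.50 and -0.15, and most others lay near 0.

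The interaction of genotype and cohort, the change in M.C minus that in Mith, is made of the within-cohort changes that the choice of Nnat used and is given as a description. In limma 0% of all probe sets were called for it, the 29 members included, and 9.78% of all probe sets had an unadjusted p under 0.05. For Nnat the M.C change minus the Mith change was -0.53 ± 0.35, with a 95% interval of -1.27 to 0.21. When wild-type replicate 2 was left out this difference was -0.26 ± 0.26. Ndn 1438978_x_at, the 1 member with an unadjusted p under 0.05 for it, had a change of 0.20 ± 0.10 in M.C and -0.36 ± 0.12 in Mith.

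The choice of Nnat did not use the difference between the cohorts, and most member probe sets differed there. With genotype as a term, 18 of the 29 probe sets were called between M.C and Mith, 7 higher and 11 lower in M.C, where 32.3% of all probe sets were called, 15.3% higher and 17.0% lower. Nnat was not among them, with M.C minus Mith at -0.12 ± 0.18 and an adjusted p of 0.661 in limma, nor was Dlk1, at 0.10 ± 0.30 with an adjusted p of 0.828. Of the 18, 13 kept their call in all alternatives tried. Several of the 18 are repeat probe sets of Ndn and of Meg3. Most member probe sets are bright, and a larger share was called among probe sets above the median level. The direction over all probe sets depended on the scaling, with 3847 lower and 3465 higher in M.C when centred, against 3349 and 4314 as deposited. With quantile normalization it was 3408 and 4003, and 9 member probe sets were called lower and 8 higher.

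Most probe sets of Ndn and of Meg3 went opposite ways between the cohorts. For Ndn the 5 probe sets of highest mean were lower in M.C, at -0.78 ± 0.11 for 1435383_x_at to -0.38 ± 0.08 for 1437853_x_at, with adjusted p of 5.71e-05 and 0.00146 in limma. Ndn 1435383_x_at averaged 10.47 in M.C and 11.25 in Mith. Under quantile normalization the difference of 1437853_x_at shrank to -0.13 and was not called. Of the other 3 Ndn probe sets, none called, 1438939_x_at and 1456575_at were at -0.13 ± 0.08 and -0.07 ± 0.09 and 1438978_x_at at 0.15 ± 0.10. For Meg3, 4 of 5 probe sets were called as higher in M.C, by 0.31 ± 0.08 to 0.50 ± 0.09, and the fifth, 1436713_s_at, was at -0.66 ± 0.36 and not called. Meg3 1426758_s_at averaged 11.38 in M.C and 10.88 in Mith, with an adjusted p of 0.000394 in limma.

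Probe sets of the same gene also disagreed between cohorts. Peg3 was lower in M.C with 1433924_at, at -0.54 ± 0.09, and with 1417356_at, at -0.25 ± 0.07, but higher with 1417355_at, at 0.36 ± 0.10, and all 3 were called. The probe sets annotated to Snurf and Snrpn together gave 0.21 ± 0.08, -0.26 ± 0.06 and -0.51 ± 0.10 where they were called. Of these, the first lost its call in 11 of 19 alternatives and the second lay at 0.00 after quantile normalization. Grb10 was lower in M.C with 1425458_a_at and 1425457_a_at, at -0.46 ± 0.08 and -0.30 ± 0.08, and Igf2 1448152_at was higher, at 0.26 ± 0.08. The thalamic marker list given above was lower on all arrays of M.C, at -0.47 to -0.10, than on those of Mith, at -0.08 to 0.31 in R6/2 and 0.37 to 0.997 in wild-type, and its part in the cohort differences was not tested.

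**Figure D3:**
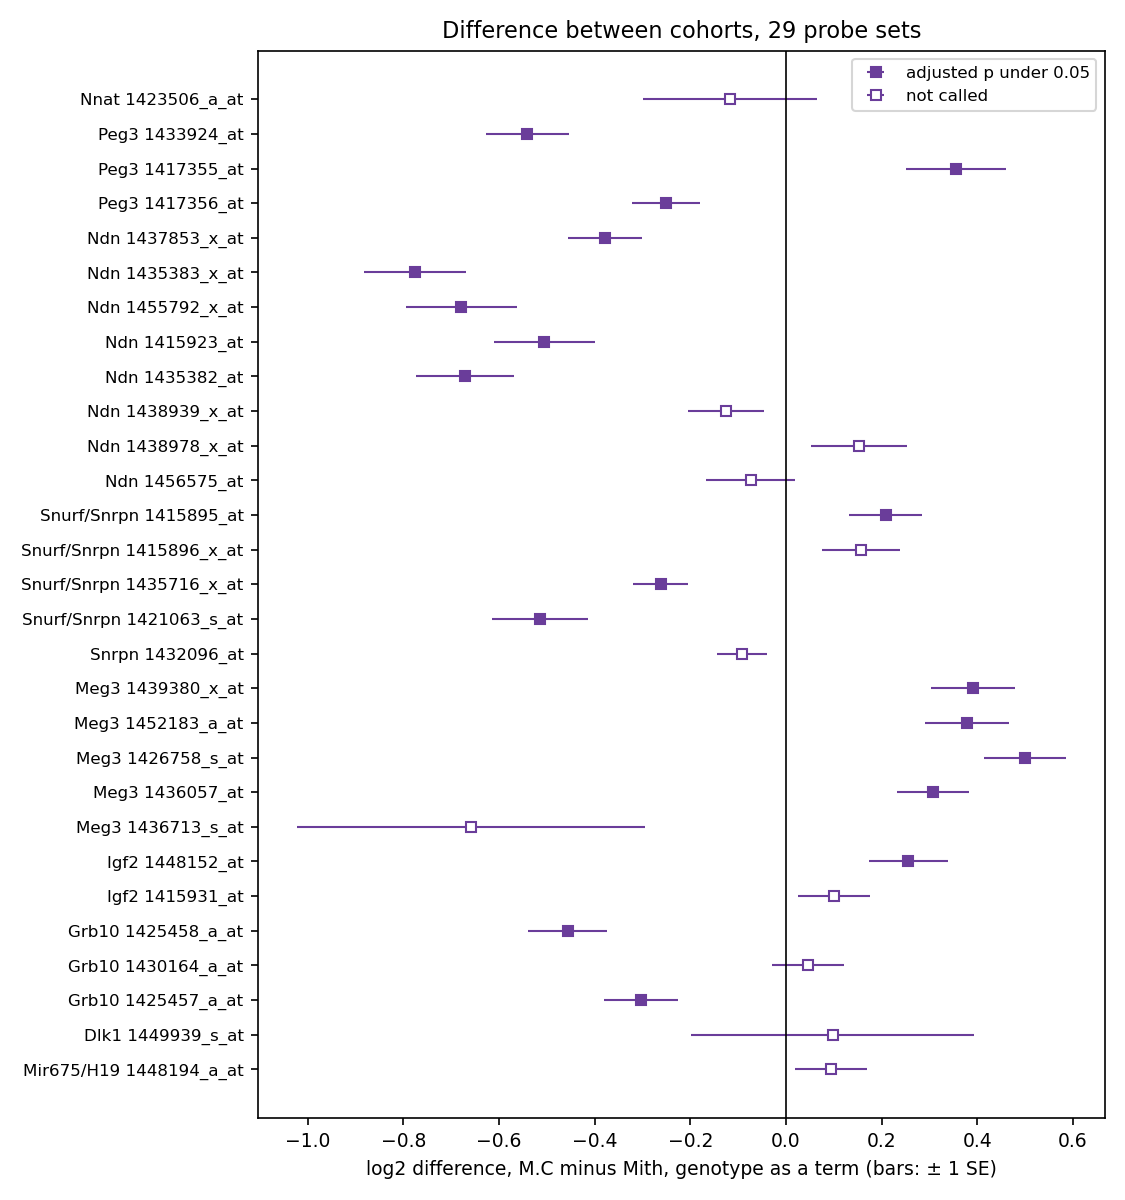
Difference between cohorts in log2 units (horizontal axis, M.C minus Mith, bars ± 1 SE) for the 29 probe sets, filled where the adjusted p was under 0.05. The Ndn probe sets of highest mean lay between -0.78 and -0.38, 4 Meg3 probe sets between 0.31 and 0.50, and Nnat at -0.12.

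Whether other members followed Nnat from array to array was asked after the means of the 4 genotype and cohort groups had been removed, so that the fall of Nnat itself played no part. In limma 0 of the 28 other probe sets had a called slope on Nnat, with and without wild-type replicate 2, where 0.00884% and 0.00442% of all probe sets had, and 5 of the 28 had an unadjusted p under 0.05, against 8.72% of all probe sets. The smallest adjusted p of a member was 0.353 over the 14 arrays, for Dlk1.

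Dlk1 had the highest correlation with Nnat among the 28, at r = 0.75 and rho = 0.587 (n = 14, exact permutation within the 4 groups, two-sided p = 0.0703 and 0.0628). Without R6/2 replicate 2 and wild-type replicate 2, the arrays farthest from the median of the Nnat residual, r was 0.12. With wild-type replicate 2 alone left out it was 0.21, so the relation rested mainly on that array. With all arrays of a cohort kept, r was 0.81 within M.C and 0.29 within Mith.

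Once wild-type replicate 2 was left out, the correlation with Nnat was higher for 8 of 8 Ndn probe sets, 2 of 3 of Peg3 and 2 of 3 of Grb10, and probe sets of the same gene differed widely. It was also higher for all 4 probe sets of Snurf and Snrpn together, for Snrpn 1432096_at and for 1 of 2 of Igf2. For Meg3 it was higher for 1 of 5, and for Dlk1 and for Mir675 and H19 together it was lower. The share of all genes with a higher correlation was not counted, so a higher r alone is not read as a result about the members. Among the genes compared below, the percentile rose for every Ndn probe set. It fell, although r rose, for Peg3 1417355_at (92.5 to 87.8) and Snrpn 1432096_at (71.4 to 65.7), among others. The r without that array lay between 0.0080 and 0.82 for Ndn, between 0.095 and 0.76 for Peg3 and between -0.37 and 0.77 for Grb10. Each of the 28 probe sets was set against Nnat by r and by rho over several sets of arrays. These were all arrays, those without wild-type replicate 2, each cohort, and M.C without that array. For Ndn, Peg3 and Grb10 the probe set with the highest r without wild-type replicate 2 is described. The permutation p-values are not adjusted for the number of relations or for the choice of probe set and arrays. Peg3 1433924_at had r = 0.62 and rho = 0.670 over 14 arrays (exact permutation p = 0.0395 and 0.0291), and r was 0.68 without the 2 farthest arrays. Within M.C its r was 0.57 and within Mith 0.82 (exact permutation p = 0.151 and 0.139). Its slope in limma had an adjusted p of 0.565 with and 0.125 without wild-type replicate 2, so that it was not called.

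Ndn 1415923_at had r = 0.55 and rho = 0.591 over 14 arrays (exact permutation p = 0.0706 and 0.0647), and r was 0.78 without the 2 farthest arrays. Without wild-type replicate 2 it had r = 0.82 and rho = 0.791 (exact permutation p = 0.000965 and 0.00116), and r was 0.62 when R6/2 replicates 2 and 4, the arrays then farthest from the median, were left out too. Its slope in limma had an adjusted p of 0.108 there and was not called. Within the cohorts its r was 0.48 in M.C, 0.83 in M.C without wild-type replicate 2 and 0.81 in Mith. The value of 0.83 became 0.16 when R6/2 replicates 2 and 4 were left out too. With the same arrays left out, r in M.C went from 0.73 to 0.06 for Peg3 1433924_at and from 0.77 to -0.09 for Grb10 1425458_a_at. Grb10 1425458_a_at had r = 0.47 and rho = 0.495 over 14 arrays (exact permutation p = 0.109 and 0.107), and r was 0.73 without the 2 farthest arrays. Without wild-type replicate 2 its r was 0.77, and its slope had an adjusted p of 0.123 in limma.

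Against the 7001 genes with 1 symbol and a mean above the median, the correlations of these 3 probe sets were high but not at the top. Over the 14 arrays Ndn 1415923_at stood at the percentile 92.9, Grb10 1425458_a_at at 87.4 and Peg3 1433924_at at 96.4. With wild-type replicate 2 left out they stood at 98.6, 96.2 and 95.5, so that the rank of the Peg3 probe set did not rise. The lowest probe set of the same genes stood at 38.2 for Ndn, 18.7 for Grb10 and 43.5 for Peg3. Dlk1 stood at 50.7, against 99.4 with that array. The probe set annotated to Mir675 and H19 together ran the other way, with r = -0.34 over 14 arrays and -0.61 without wild-type replicate 2. The 5 genes most like Nnat over the 14 arrays were Gstz1, Tmed3, Tpm4, Anxa5 and Odc1, with r of 0.92, 0.91, 0.91, 0.90 and 0.90, and the 3 least like it were Il1rap, Opn3 and Stk32b, with r of -0.89, -0.89 and -0.88. Among these 8 genes the slope was called for Tmed3, with an adjusted p of 0.0242 in limma, and not without wild-type replicate 2, where it was 0.108.

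**Figure D4:**
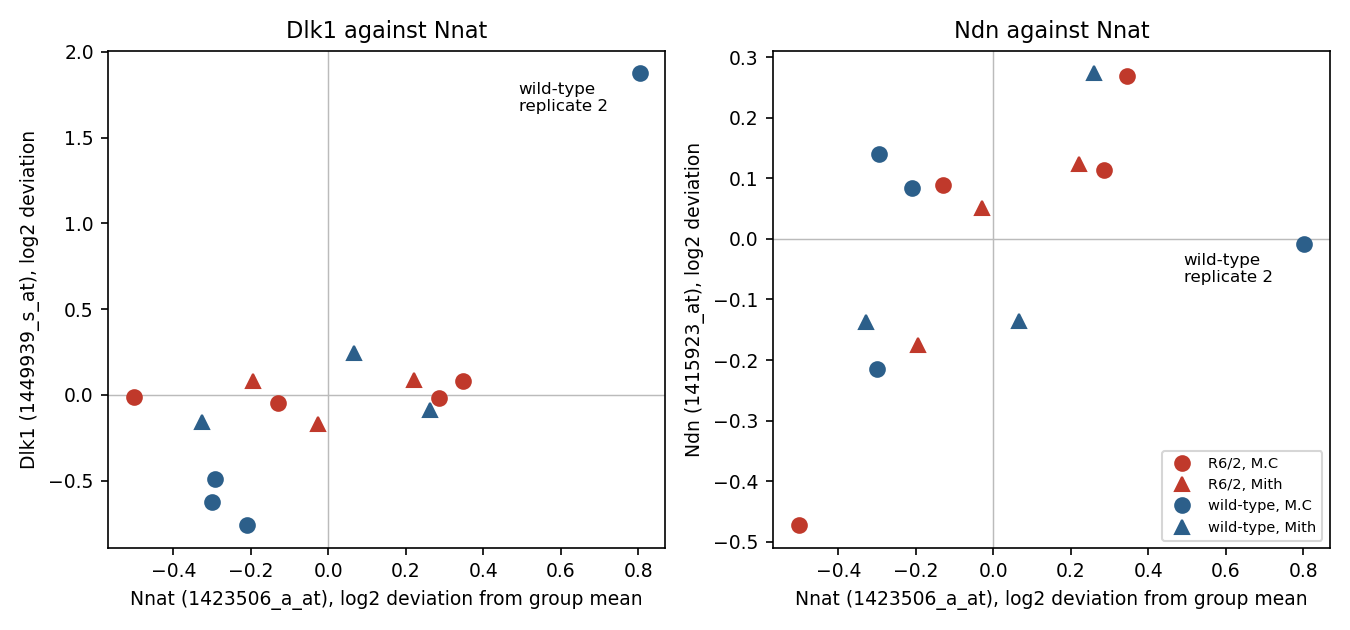
Residuals of Nnat (horizontal axis, log2) against those of Dlk1 and Ndn (vertical axis, log2) after removal of the 4 group means, each point an array (circles M.C, triangles Mith), R6/2 and wild-type in different colours. Dlk1 had r = 0.75 with wild-type replicate 2 and 0.21 without it, while Ndn 1415923_at had r = 0.55 with and 0.82 without that array.

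The change between the genotypes was also read for imprinted genes that are not members. Of 50 such genes listed, 36 had a probe set with 1 symbol, and in limma 0 were called between the genotypes, with 13 lower and 23 higher in R6/2 and a median change of 0.03. At an unadjusted p under 0.05 there were 7, or 19.4%, against 15.2% of all probe sets. Of the paternally expressed genes, 15 of 23 were measured. Rasgrf1, a guanine nucleotide exchange factor of neurons, averaged 9.53 ± 0.31 in R6/2 and 9.81 ± 0.30 in wild-type arrays (SD, n = 7 each), a change of -0.28 ± 0.10 with an adjusted p of 0.183 in limma. Mcts2, a retrogene that lies within H13, had a change of 0.27 ± 0.09 with an adjusted p of 0.156 in limma.

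Of the maternally expressed genes, 20 of 26 were measured. Commd1, a copper and NF-kappaB regulator, had a change of 0.27 ± 0.10 with an adjusted p of 0.166 in limma, and Asb4, part of a ubiquitin ligase, had -0.25 ± 0.11 with an adjusted p of 0.298. Commd1, a dim probe set with a mean of 4.18, was called with array weights and without R6/2 replicate 4, and Mcts2 without wild-type replicate 5. Blcap, in which Nnat lies, averaged 9.11 ± 0.29 in R6/2 and 9.05 ± 0.10 in wild-type arrays (SD, n = 7 each), a change of 0.06 ± 0.10 with an adjusted p of 0.838 in limma. After removal of the 4 group means its slope on Nnat was 0.35 ± 0.13, with an adjusted p of 0.547 in limma. Without wild-type replicate 2 the Blcap slope was 0.74 ± 0.13, with an adjusted p of 0.104 in limma. Asb4 had a slope of 0.53 ± 0.11 with an adjusted p of 0.259 in limma, and of 0.24 ± 0.13 without that array. Over the 14 arrays 0 of the 36 genes had a called slope. Gnas, whose promoters differ in the allele they use, had a change of -0.01 ± 0.09.

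**Figure D5:**
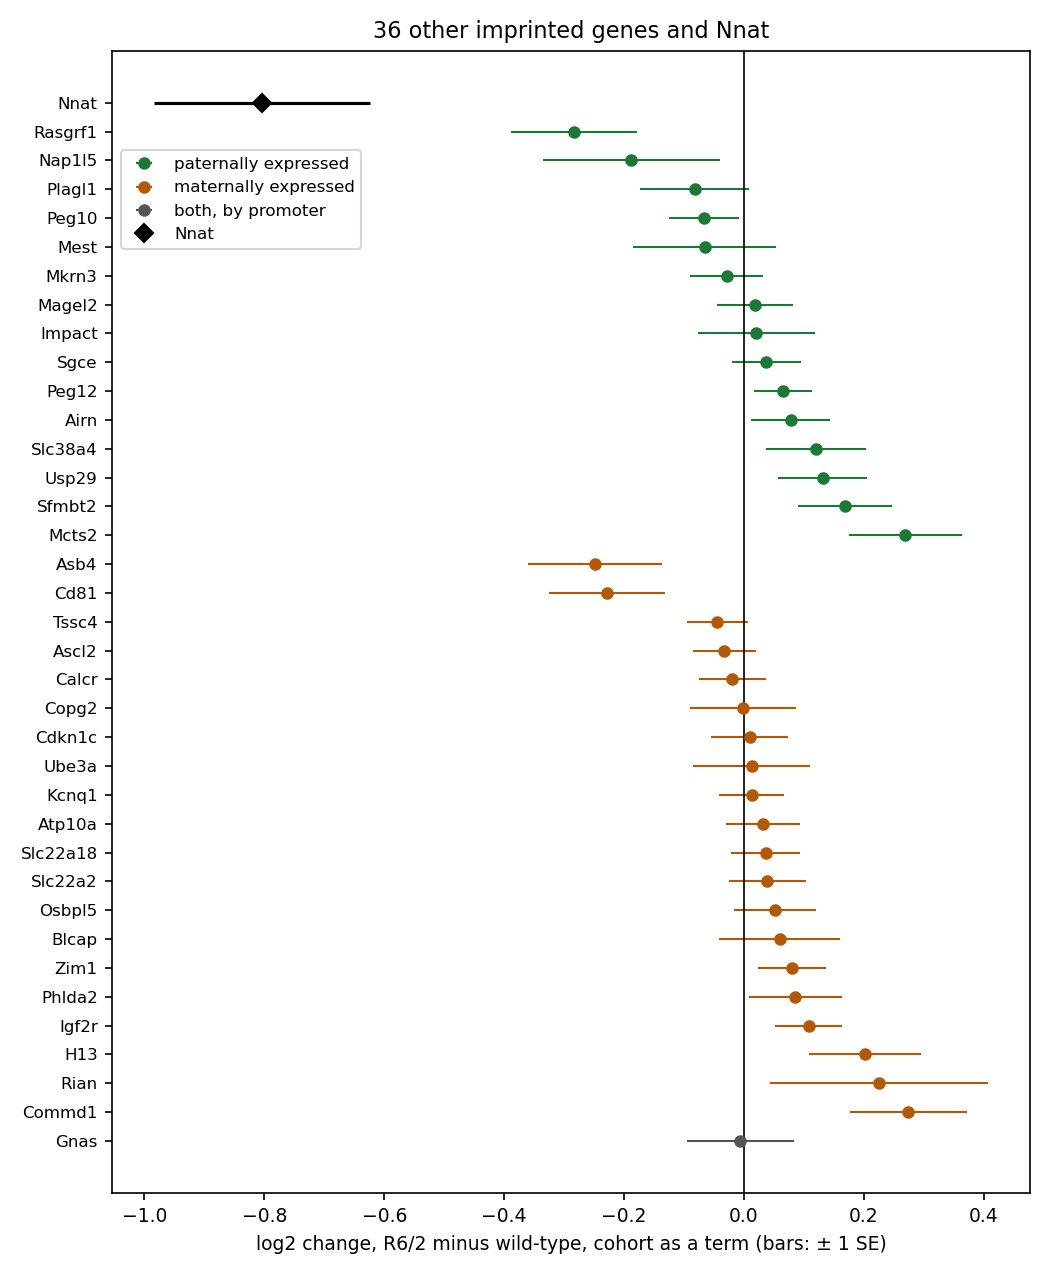
Change with genotype in log2 units (horizontal axis, R6/2 minus wild-type, bars ± 1 SE) for the 36 other imprinted genes measured, grouped by the allele they are mainly expressed from, with Nnat added at the top. None of the 36 was called, and the values lay between -0.28 for Rasgrf1 and 0.27 for Commd1.

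All 11 listed genes of insulin and insulin-like growth factor signalling, in which Igf2 and Grb10 act, were measured. Of these, 10 were lower and 1 higher in R6/2, with a median change of -0.03, where 10216 of all 22626 probe sets were lower. In limma 3 had an unadjusted p under 0.05, all lower, and 1 was called, where 15.2% and 2.55% of all probe sets were. The called gene was Igfbp4, a binding protein for these growth factors, at 8.48 ± 0.27 in R6/2 and 8.93 ± 0.46 in wild-type arrays (SD, n = 7 each). Its change was -0.45 ± 0.12 with an adjusted p of 0.0492 in limma. It was not called without wild-type replicate 2, where the change was -0.42. Of 13 genes of imprint maintenance and DNA methylation, such as Dnmt1, Trim28 and Zfp57, 12 were measured and 0 were called or had an unadjusted p under 0.05 in limma, with changes from -0.18 to 0.10. For comparison with the size of the Nnat change, 6 of 7 striatal projection neuron genes measured were lower in R6/2. Of the 7, 5 were called as lower, among them Penk, at -0.89 ± 0.11 with an adjusted p of 0.000887 in limma.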

How the data were processed

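The deposited table of the series holds log2 probe set signals of 14 Affymetrix mouse arrays of striatal RNA, one column per sample. Values lay between 2.96 and 14.5, from which the log2 unit was inferred. The summarising and normalizing method of the authors is not stated in the labels or the table. No raw scans were used, so probe level background was not modelled, and the number of arrays limits the precision. The 64 control probe sets were left out. The array medians spanned 0.108, over the limit of 0.1, and all arrays were therefore shifted to the same median. Symbols came from the platform's table, updated by gene ID for 20351 probe sets.

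All 22626 probe sets were fitted with limma 3.58.1 in R 4.3.3 (two-sided moderated test). Genotype was fitted with cohort as a term, and 4 group means gave the within-cohort changes and the interaction. Replicates are numbered in record order within a genotype. The members, gene lists and tests were chosen with earlier results of these data known. Named were all members, Blcap, called genes of each list, at most 6 by smallest p, the 5 genes most and 3 least like Nnat, and tissue markers. Rasgrf1, Mcts2, Commd1, Asb4, Gnas, Dnmt1, Trim28 and Zfp57 were not called and were named as examples. Cd81, H13 and Sfmbt2, other imprinted genes that also had an unadjusted p under 0.05 in limma, had changes of -0.23, 0.20 and 0.17. The fits were tested on simulated data with independent noise for each probe set. These held no effect shared by the probe sets of an array, so arrays that stand apart were not covered. Alternatives were another scaling, no cohort term, array weights, a filter on dim probe sets, trended variances, the Actb covariate, each cohort alone and each array left out.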

Additional observations from a re-analysis of the deposited data

Results flagged for a closer look

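Of 116 groups of arrays looked at among the members (7 arrays of a genotype, or 4 in M.C), 11 held an array far from the others by Dixon's test, which chance alone gives in about 1 of 20 groups. Of these, 3 concerned wild-type replicate 2, the array with the pituitary hormones. Nnat was highest there at 11.90, with the next wild-type array of M.C at 10.88. Dlk1 was highest there at 9.80, both among the 7 wild-type arrays, where the next was 7.86, and among the 4 of M.C, where the next was 7.44.

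The other 8 were spread over several arrays. R6/2 replicate 5 was lowest for Snurf and Snrpn 1415896_x_at at 12.49, with the next at 12.81, and highest for Snrpn 1432096_at at 8.55, with the next at 8.38. R6/2 replicate 4 was highest for Grb10 1430164_a_at at 6.78, with the next at 6.44, and lowest of the M.C arrays for Snurf and Snrpn 1435716_x_at at 11.09, with the next at 11.20. Wild-type replicate 1 was lowest of the M.C arrays for Peg3 1417355_at at 10.39, with the next at 10.89. Wild-type replicate 6 was highest for Ndn 1438978_x_at at 6.73, with the next at 6.43, and lowest for Igf2 1448152_at at 8.11, with the next at 8.54. Wild-type replicate 7 was highest for Snurf and Snrpn 1421063_s_at at 10.90, with the next at 10.35. Leaving out each of these arrays in turn reversed no called change of a member.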

How the results depend on the processing

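Counts of called probe sets moved more than the changes themselves, and no called change reversed. For genotype, 578 calls became 100 without the cohort term, 56 with the Actb covariate, 1333 with array weights, 0 in Mith alone, 123 without both wild-type arrays with pituitary hormones (chosen after seeing the data) and 280 to 879 with 1 array left out. The 1 called member became 0 without the cohort term, with the Actb covariate, in M.C alone, in Mith alone and without both those wild-type arrays, 2 with quantile normalization (Nnat and Ndn) and with array weights (Nnat and Grb10), and 0 to 2 with 1 array left out. The 5 calls within Mith became 0 when that cohort was fitted alone. The 7312 calls between cohorts became 4653 among probe sets above the median level, where fewer were tested and a larger share was called. The 2 calls for the level with Nnat became 1 with quantile normalization and without both wild-type arrays with hormones, 0 without wild-type replicate 2 and R6/2 replicate 4 (chosen after seeing the data), and 0 to 4 with 1 array left out. The 0 calls among other imprinted genes became 1 with array weights and without wild-type replicate 2 and R6/2 replicate 4, and 0 to 1 with 1 array left out. The 0 calls for the interaction became 1 without that pair of arrays, and 0 to 7 with 1 array left out, the most without wild-type replicate 6. The causes were not tested. Of single changes with genotype, 5 moved by over 1 SD and 688 did not; of cohort differences, 16 lost their call and 325 kept it. No paired analysis was possible because the labels give no replicate numbers that pair R6/2 with wild-type arrays.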

Other observations

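Marker lists of cells and tissues near the striatum were read in the same fit of genotype, where 2.55% of all probe sets were called and 15.2% had an unadjusted p under 0.05. Of 9 genes of immature neurons 9 were measured and 0 were called in limma, 2 having an unadjusted p under 0.05. Their mean level ran from -0.09 to 0.10 on R6/2 arrays and from -0.15 to 0.16 on wild-type arrays, with wild-type replicate 2 the highest (log2, relative to the mean of all arrays). None of the measured genes was called for choroid plexus (6 measured, 0 at an unadjusted p under 0.05), meninges (8 measured, 1), vessel (6 measured, 0), hypothalamus (7 measured, 1), cortical glutamatergic neurons (5 measured, 1) and thalamus (7 measured, 4, all lower in R6/2). All 5 septal and cholinergic genes measured were lower in R6/2 and 1 was called. This was Slc18a3, the vesicular acetylcholine transporter, at -0.35 ± 0.07 with an adjusted p of 0.0118 in limma. Choroid plexus genes were lowest on wild-type replicate 2, at -0.67.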
